A study of Mus musculus with 8 samples.

Results

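The genes described here are 9 that encode scaffold proteins of the postsynaptic density, the protein sheet under excitatory synapses: Dlg2, Dlg3, Dlg4, Shank1, Shank2, Shank3, Dlgap1, Dlgap3 and Ddn. They were taken by name from a table of 23845 genes, and all 9 had an entry and a mean above the 1 TPM asked of a tested gene, as did 13681 genes in all. TPM is a transcript's share of a library, per length, scaled to 1000000. Poly(A) RNA came from primary mouse hippocampal neurons, taken from embryos at day 19 and cultured. Neurons were infected at 13 to 15 days in vitro with a lentivirus that expressed a short hairpin RNA, and the labels put their age at 17 to 19 days in vitro. In the control groups the hairpin was scrambled, and in the knockdown groups it was directed against Cnot7, a deadenylase of the CCR4-NOT complex that shortens poly(A) tails. From each, RNA bound to poly(U) agarose was either eluted whole at 75 °C (total poly(A) RNA) or first washed at 50 °C, which per the labels removes tails under 50 nucleotides, and then eluted at 75 °C (long-tail RNA). This gave 4 groups of 2 libraries. The labels give neither strain nor sex nor the number of hairpins, and do not say if both libraries of a group were grown separately, so a p-value measures only the spread between these libraries. Lentivirus does not select for neurons, and a hairpin lowers its target without removing it.

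Scaffold proteins hold glutamate receptors in place opposite the release site and tie them to signalling enzymes and to actin. The layers stack: the Dlg proteins, membrane-associated guanylate kinases, bind receptor tails through PDZ domains; the Dlgap proteins bind the guanylate kinase domain of the Dlg proteins; and the Shank proteins bind the Dlgap proteins and reach Homer and the actin network. Dendrin, the product of Ddn, is a dendritic and synaptic protein. The mRNAs of Shank1, Dlgap3, Ddn and Dlg4 are known to be carried into dendrites, where translation can be controlled through the tail. One such control acts through the cytoplasmic polyadenylation element, a U-rich motif near the poly(A) signal that is bound by CPEB proteins, which can recruit deadenylases or poly(A) polymerases.

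Because tail control of this kind is read from the last bases of the mRNA, those bases were searched first. For each gene 1 coding transcript was taken from GENCODE release M21 (GRCm38, the build that the submitters' notes call mm10), and its last 100 bases, all in the 3′ UTR, were searched on the transcript strand for the element (TTTTAT or TTTTAAT) and for the poly(A) signal (AATAAA or ATTAAA). An element was found in 1 of 9 members, Dlg3, against 19.7% of 11979 tested genes whose last 100 bases lie in the 3′ UTR, and a poly(A) signal in 7 of 9, against 81.8%. In Dlg3 the element overlaps the poly(A) signal AATAAA. Neither was found in the windows of Dlg4 and Shank1, which says only that these letters are not in those windows. The sites are shown as DNA letters, 5′ to 3′, 30 bases each, with the element of Dlg3 and the poly(A) signal of the other 6 in capitals.
Dlg3: agacatatattTTTTAATaaatgatagttg
Dlg2: tcttataaaaatATTAAAacattttttact
Shank2: tactgtaaaaaaAATAAAtatactcttgca
Shank3: ataatattatgtAATAAAtttataagaaat
Dlgap1: aaagaaggaattAATAAAataatcaatgca
Dlgap3: tatcccaggaaaAATAAAaccgcagaactg
Ddn: tagcaggcgcccAATAAAtctactcgcccc

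The genes lie on 6 chromosomes (GRCm38). Dlg4 is on chromosome 11 (70016942 to 70047522), Dlg3 on chromosome X (100767722 to 100818410), Dlgap1 on chromosome 17 (69969073 to 70821413) and Dlgap3 on chromosome 4 (127169204 to 127237022), all on the plus strand. Dlg2 (90476672 to 92449247), Shank1 (44310253 to 44360572) and Shank2 (144001928 to 144424494) are on the plus strand of chromosome 7. Shank3 (89499623 to 89560261, plus strand) and Ddn (98803777 to 98809490, minus strand) are on chromosome 15. Exons of Shank1, Shank3, Dlgap1 and Ddn overlap exons of a gene on the opposite strand in this annotation, and exons of Dlg2 overlap those of Gm45131 and Gm45159 on its own strand. No source used here says if counting kept to 1 strand, so reads of such partners cannot be told apart. The transcripts taken here differ in length, from 3488 nucleotides for Dlg4 to 9826 for Shank1, and in 3′ UTR, from 654 for Dlgap3 to 4630 for Dlg2. The longest coding transcript of Dlg4 has 6326 nucleotides and that of Dlgap1 7173, against 5276 in the one taken. Values are per gene, so which transcript these neurons express cannot be given.

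Read depth is unknown, since the deposited table holds TPM rounded to whole numbers, with sums of 999689 to 999809 per library. The precursor of ribosomal RNA, Rn45s, took from 2.90% (knockdown long-tail library 2) to 18.6% (knockdown long-tail library 1) of a library. Cnot7 was at 42 and 36 TPM in scrambled and at 12 and 16 TPM in knockdown total RNA, and at 28 and 31 TPM and 9 and 11 TPM in long tails, with no overlap in either. Its log2 difference was −1.42 in total RNA (limma, adjusted p = 0.153) and −1.48 in long tails (limma, adjusted p = 0.173). The authors' deposited tables list Cnot7 at log2 −1.12 for total RNA, with an adjusted p of 3.96e-05, and at −1.18 for long tails, with an adjusted p of 1.02e-05. All 6 neuronal markers had a mean of at least 1 TPM, and their sum, though not each of them, was higher in the knockdown libraries. They summed to 2973 and 2833 TPM in scrambled and 3518 and 3042 TPM in knockdown total RNA, and to 2265 and 2593 TPM and 2635 and 2907 TPM in long tails, without overlap. The sums of 8 markers of excitatory neurons overlapped between groups in both fractions (2012 to 3293 TPM). The 8 astrocyte markers summed to 3125 to 5790 TPM, while of 7 microglial markers 4 were at 0 throughout and the sum was at most 5 TPM. The 11 markers of the oligodendrocyte lineage summed to 1591 to 1997 TPM in the scrambled libraries and to 1069 to 1358 TPM in the knockdown libraries. The neuronal and the oligodendrocyte sums thus moved with the knockdown, in opposite directions, and their part in the differences below was not tested.

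Dlg4 was the most abundant scaffold mRNA in every library, and the lowest group mean was that of Dlg3 or Shank2 in each of the 4 groups. In scrambled total RNA, Dlg4 was at 438.5 ± 72.8 TPM (SD, n = 2 libraries, as for all levels here), above 97.7% of tested genes. Dlgap1 (158 ± 11.3 TPM), Ddn (156 ± 36.8 TPM) and Dlgap3 (146 ± 52.3 TPM) came next, and neighbours in that order overlapped. Dlg2 (103.5 ± 4.95 TPM), Shank1 (94 ± 31.1 TPM) and Shank3 (88 ± 9.90 TPM) followed, again with overlap between neighbours. Shank2 (60 ± 0 TPM) and Dlg3 (49.5 ± 2.12 TPM) were lowest, each below the gene before it without overlap. Dlg4 alone made up 32.3% to 38.3% of the summed TPM of the 9 genes in 7 libraries and 46.9% in knockdown long-tail library 2. In that sum the 9 genes took 0.0898% to 0.165% of a library.

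**Figure D1:**
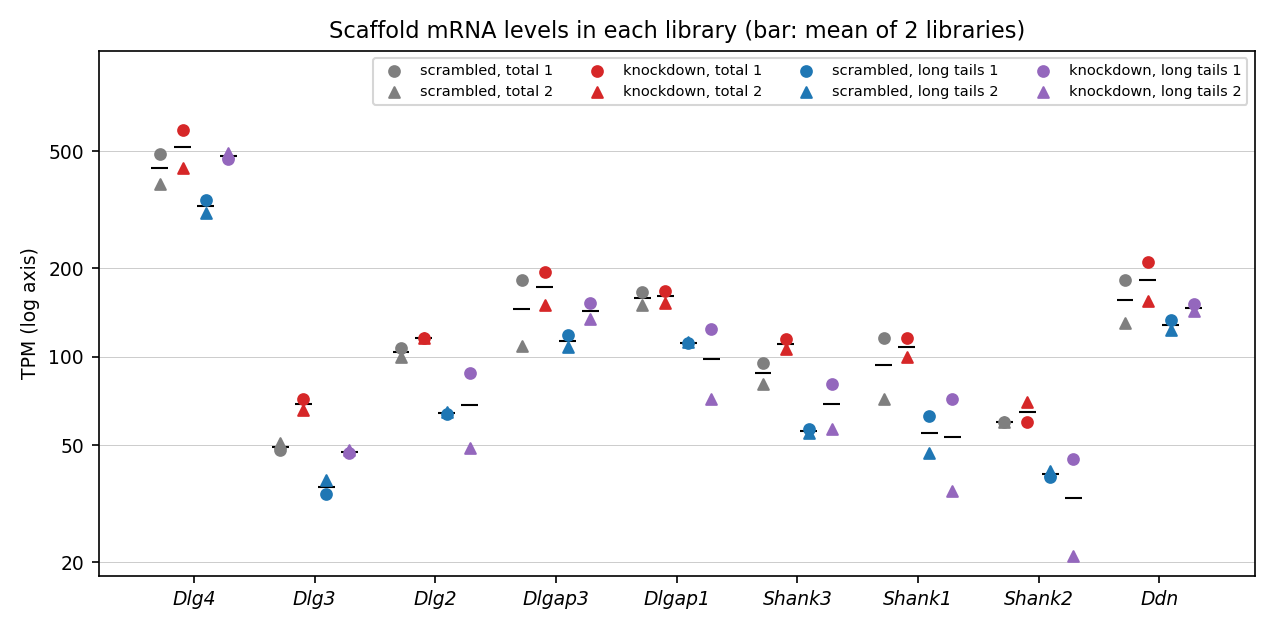
TPM of each scaffold gene in the 8 libraries, on a log axis. Circles are library 1 and triangles library 2 of a group, colours are the 4 groups and bars are group means; Dlg4 stands above the other 8 genes in every library, and knockdown long-tail library 2 is the lowest library for Dlg2, Dlgap1, Shank1 and Shank2.

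Whether the knockdown changed the share of scaffold mRNA in total RNA was asked first. All 9 genes had a positive log2 difference (knockdown minus scrambled), from 0.02 for Dlgap1 to 0.47 for Dlg3, with a median of 0.23 against −0.07 over all tested genes, of which 36.3% were above and 61.2% below 0. In bulk RNA, a difference in the number of a type of cell and a difference in RNA per cell cannot be told apart. None passed the threshold of an adjusted p under 0.05 in limma, over 0% of all genes. At an unadjusted p under 0.05, 1 of the 9 was higher (Dlg3) and 0 lower, against 2.05% and 4.30% of all genes. The 2 knockdown libraries lay above both scrambled ones for 3 of 9 genes, against 8.68% of all genes, and below both for 0, against 20.1%. In 4 of the 9 (Dlgap1, Dlgap3, Shank1 and Ddn) the sign turned when 1 library was left out. That was scrambled total library 2 for all 4, and knockdown total library 1 also for Dlgap1. For these 4, library 2 was the lower one in both groups, and compared by library number none was lower in knockdown. Over genes averaging 20 TPM or more, deviations of same-numbered libraries correlated at 0.674 between these groups, but the labels state no pairing. Among the rest, Shank2 was at 0 without knockdown total library 2, and Dlg4 at 0.008 without knockdown total library 1.

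Among the Dlg genes, Dlg3, which encodes SAP102, the relative that is prominent in young synapses, was at 48 and 51 TPM in scrambled and at 72 and 66 TPM in knockdown total RNA. The groups did not overlap. The difference was 0.47 on the log2 scale (SE 0.108; limma, adjusted p = 0.461, and 0.219 to 1.00 over the alternatives), and it lay between 0.41 and 0.55 under every alternative run. Dlg4, which encodes PSD-95, was at 490 and 387 TPM in scrambled and at 593 and 438 TPM in knockdown, and the groups overlapped. Its difference was 0.23 (95% confidence interval −0.26 to 0.71). Dlg2, which encodes PSD-93, was at 107 and 100 TPM and at 116 and 116 TPM, without overlap, a difference of 0.16 (−0.49 to 0.82).

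Among the Dlgap genes, Dlgap3 was at 183 and 109 TPM in scrambled and at 195 and 150 TPM in knockdown, a difference of 0.27 (−0.40 to 0.95). Library 2 was the lower one in both groups, and without scrambled library 2 the difference was −0.10. Dlgap1 was at 166 and 150 TPM and at 168 and 153 TPM, a difference of 0.02 (−0.61 to 0.65). Groups overlapped for both genes.

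Among the Shank genes, Shank3 was at 95 and 81 TPM in scrambled and at 115 and 106 TPM in knockdown, without overlap, a difference of 0.33 (−0.14 to 0.79). Shank1 was at 116 and 72 TPM and at 116 and 100 TPM, a difference of 0.23 (−0.76 to 1.23). Shank2 was at 60 and 60 TPM and at 60 and 70 TPM, a difference of 0.11 (−0.73 to 0.95). Shank1 and Shank2 overlapped between groups, and for Shank1 library 2 was again the lower one in both groups. Ddn was at 182 and 130 TPM in scrambled and at 210 and 155 TPM in knockdown, with overlap and a difference of 0.23 (−0.31 to 0.76). The intervals of all but Dlg3 included 0, with upper bounds from 0.65 to 1.23, so these data do not show that the levels were alike.

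In long-tail RNA the genes parted. Dlg4, Dlg3, Dlgap3 and Ddn were higher in both knockdown libraries than in both scrambled ones (4 of 9, against 8.91% of all genes). None of the 9 was lower in both, against 17.1%. The 4 are those whose transcript taken here is under 5000 nucleotides, although the longest coding transcript of Dlg4 has 6326. Dlg4 was at 341 and 309 TPM in scrambled and at 472 and 494 TPM in knockdown long tails, a difference of 0.57 on the log2 scale (SE 0.195; limma, adjusted p = 0.531, and 0.159 to 0.966 over the alternatives). Its difference lay between 0.47 and 0.64 under every alternative. Dlg3 was at 34 and 38 TPM and at 47 and 48 TPM, a difference of 0.39 (SE 0.108; limma, adjusted p = 0.492, and 0.177 to 0.955 over the alternatives). Dlgap3 was at 119 and 108 TPM and at 152 and 134 TPM, a difference of 0.33 (95% confidence interval −0.34 to 1.00). Ddn was at 133 and 123 TPM and at 151 and 143 TPM, a difference of 0.20 (−0.34 to 0.73).

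The other 5 differed most between the 2 knockdown libraries themselves. Shank2 was at 39 and 41 TPM in scrambled and at 45 and 21 TPM in knockdown long tails, a difference of −0.37 (−1.20 to 0.47). Shank1 was at 63 and 47 TPM and at 72 and 35 TPM, a difference of −0.11 (−1.11 to 0.88). Dlgap1 was at 111 and 112 TPM and at 124 and 72 TPM, a difference of −0.24 (−0.86 to 0.39). In each, knockdown library 1 was the highest of the 4 long-tail libraries and knockdown library 2 the lowest. Dlg2 behaved alike, at 64 and 65 TPM and at 88 and 49 TPM, a difference of 0.03 (−0.63 to 0.68). Shank3 was at 57 and 55 TPM and at 81 and 57 TPM, a difference of 0.28 (−0.19 to 0.74). Without knockdown long-tail library 2 all 9 differences were positive, and the sign turned for Shank1, Shank2 and Dlgap1, to 0.40, 0.17 and 0.15. Without knockdown long-tail library 1 Dlg2 turned to −0.39, and without scrambled long-tail library 1 Shank1 turned to 0.095.

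Over the 9 genes the long-tail difference had a median of 0.20, with 6 above and 3 below 0, against a median of −0.10 over all genes, of which 32.4% were above and 62.3% below 0. None passed the threshold in limma (0% of all genes). At an unadjusted p under 0.05, 2 were higher (Dlg3 and Dlg4) and 0 lower, against 2.25% and 6.47% of all genes. None of the 9 is among the 104 genes of the authors' deposited table for total RNA or the 97 of that for long tails, where the largest adjusted p listed is 0.0477 and 0.0497.

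**Figure D2:**
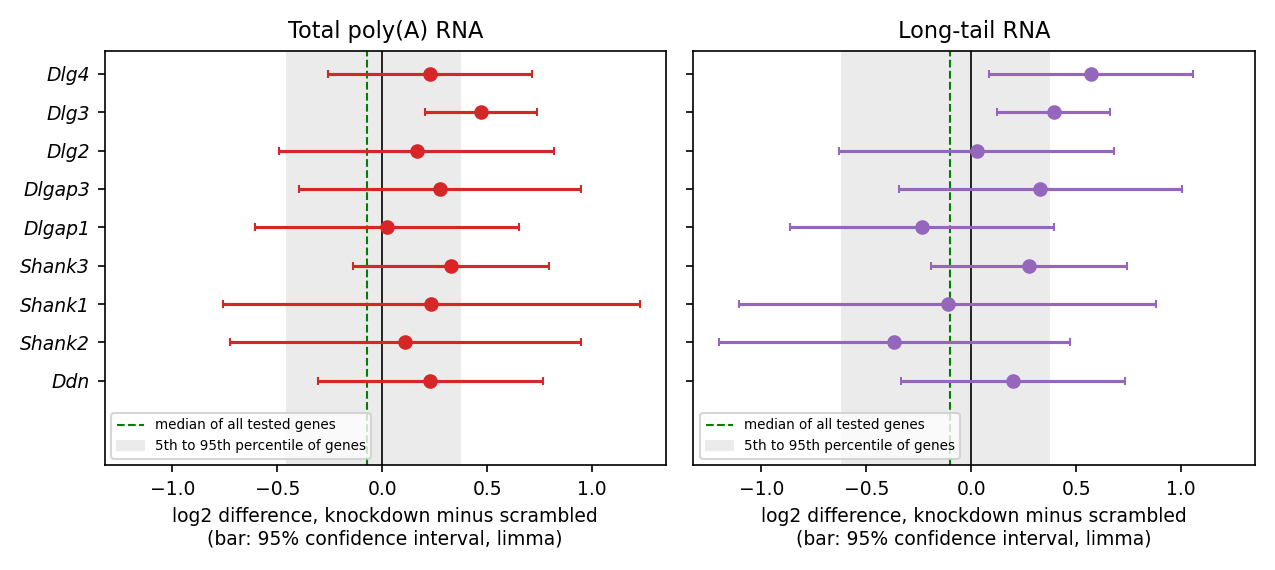
Log2 difference of knockdown minus scrambled for each scaffold gene in total (left) and long-tail RNA (right), with 95% confidence intervals from limma. The dashed line is the median and the grey band the 5th to 95th percentile of the 13681 tested genes; Dlg3 in both fractions and Dlg4 in long tails have intervals above 0, and none passed after adjustment over all genes.

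Whether the knockdown difference itself differed between the fractions was tested with the interaction in the same limma model. It was largest in size for Shank2 (−0.48, SE 0.475) and positive for Dlg4 (0.35, SE 0.276) and Dlgap3 (0.06, SE 0.382). Of the 9, 7 were below 0, against 55.9% of all genes, and 2 above, against 43.3%. The median of the 9 was −0.08 (−0.02 over all genes). The adjusted p was 1.00 for all 9 and 0 had an unadjusted p under 0.05, against 0.395% of all genes upward and 0.482% downward. For 8 of the 9, all but Dlg4, the sign of the interaction turned without 1 library or another.

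Long-tail RNA held a smaller share of scaffold mRNA than total RNA in scrambled and in knockdown neurons. In scrambled neurons all 9 differences (long tails minus total) were below 0, as were 75.0% of all genes (23.4% were above), and 7 of 9 genes were lower in both long-tail libraries than in both total libraries, against 39.6% of all genes. None was higher in both, against 4.69%. The median was −0.50, against −0.22 for all genes. In knockdown neurons all 9 were again below 0 (69.3% of all genes, with 27.2% above), 7 of 9 without overlap (40.0% of all genes, with 4.04% higher), with a median of −0.69 against −0.22. None passed the threshold in limma in either, as for 0% of all genes. At an unadjusted p under 0.05, 3 were lower in scrambled neurons (12.9% of all genes) and 6 in knockdown neurons (25.1%), and 0 were higher in either (0.263% and 0.921%). These comparisons use the libraries of the knockdown comparisons again, so the values are not independent of those above. In bulk RNA a share can also differ because other transcripts differ, and whether that was so here was not tested.

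The estimated difference was ordered largely by the length of the transcript. In scrambled neurons Shank1 (9826 nucleotides) went from 116 and 72 TPM in total RNA to 63 and 47 TPM in long tails, a difference of −0.74 (SE 0.400; limma, adjusted p = 0.432). Dlg2 (7490 nucleotides) went from 107 and 100 to 64 and 65 TPM, −0.67 (SE 0.263; limma, adjusted p = 0.378). Shank3 (7131 nucleotides) went from 95 and 81 to 57 and 55 TPM, −0.64 (SE 0.187; limma, adjusted p = 0.377). These 3, and Shank2 (8988 nucleotides, −0.57), had the most negative values, with standard errors that overlap those of neighbouring genes. Dlgap1 (5276 nucleotides) was at −0.50, Dlg3 (4885) at −0.45 and Dlg4 (3488) at −0.42. Dlgap3 (4207 nucleotides) at −0.31 and Ddn (3745) at −0.26 differed least, and for these 2 the libraries overlapped.

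In knockdown neurons the values spread further, although no gene differed by the interaction test given above. Shank1 went from 116 and 100 TPM in total RNA to 72 and 35 TPM in long tails, −1.08 (SE 0.400; limma, adjusted p = 0.169). Shank2 went from 60 and 70 to 45 and 21 TPM, −1.05 (SE 0.336; limma, adjusted p = 0.147). Dlg2 was at −0.81, Dlgap1 at −0.76, Shank3 at −0.69 and Dlg3 at −0.53. Ddn was at −0.29 and Dlgap3 at −0.26. Dlg4 was nearly level, at 593 and 438 TPM in total RNA and 472 and 494 TPM in long tails, a difference of −0.08 (95% confidence interval −0.56 to 0.41). Spearman's rho between length and difference over the 9 genes was −0.90 in scrambled and −0.97 in knockdown neurons. It was −0.93 and −0.87 when the longest coding transcript of each gene was used. Neighbouring genes on this scale share libraries and are not replicates, so rho is a description.

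Over all genes the medians ran the same way. Of tested genes with a transcript model, the 3189 under 2000 nucleotides had a median long-tail minus total difference of 0.06 in scrambled and 0.15 in knockdown neurons. Those from 4000 to 5000 nucleotides (n = 1633) were at −0.37 and −0.45, and those of 7000 nucleotides or more (n = 1089) at −0.54 and −0.86. Measured against the median of their own length range, the 9 genes lay between −0.20 (Shank1) and 0.05 (Dlgap3) in scrambled and between −0.23 (Shank1) and 0.21 (Dlg4) in knockdown neurons. These ranges rest on the 1 transcript taken per gene. The longest coding transcript of Dlg4 (6326 nucleotides) falls between 5000 and 7000, where the medians were −0.44 in scrambled and −0.63 in knockdown neurons. Dlg4 itself was at −0.42 and −0.08. That of Dlgap1 (7173 nucleotides) falls in the range of 7000 or more. The knockdown difference in long tails also had a median that moved with length over all genes, from 0.01 under 2000 nucleotides to −0.38 at 7000 or more. Against the median of its range, each of the 9 was higher: Dlg4 was at 0.57 against −0.11, Dlg3 at 0.39 against −0.18, Shank3 at 0.28 against −0.38, and Shank2, the closest to its range, at −0.37 against −0.38. Shank2 lay above 54.5% and Dlgap1 above 57.6% of the genes in their ranges. Over left-out libraries Shank2 ran from −0.90 to 0.17 and Dlgap1 from −0.62 to 0.15, and range medians were not computed for those fits. The part that tail length, as opposed to transcript length, had in the difference was not tested.

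**Figure D3:**
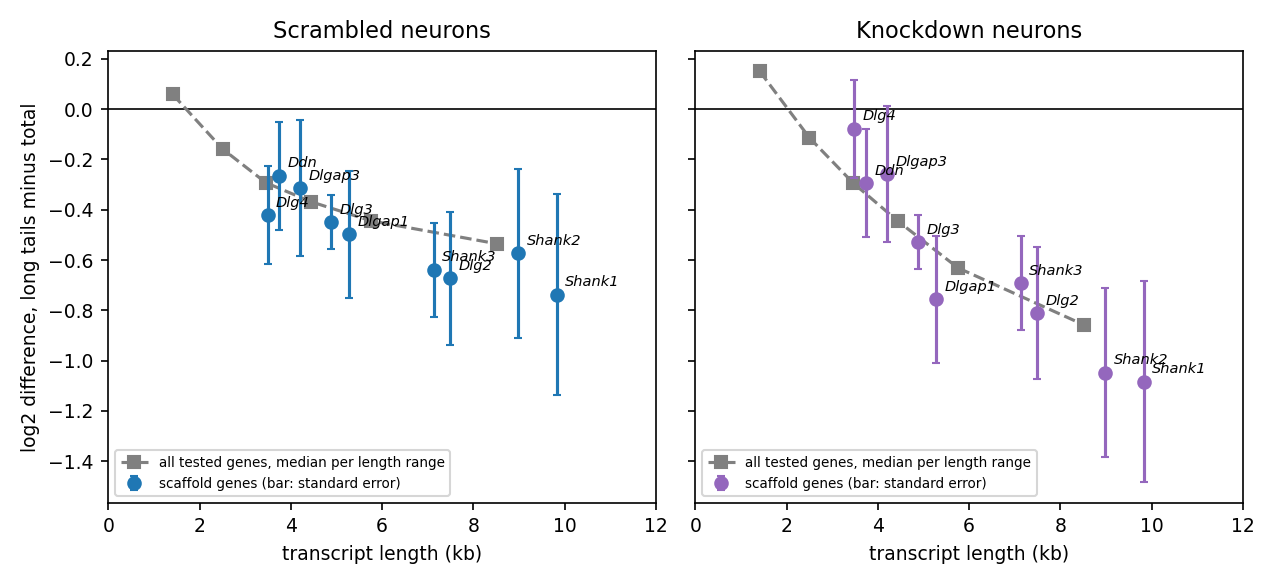
Log2 difference of long tails minus total for each scaffold gene against the length of its transcript, in scrambled (left) and knockdown neurons (right); error bars are standard errors from limma. Grey squares are medians of all tested genes in 6 ranges of length. At the length of the 1 transcript taken per gene the scaffold genes run close to them, from −0.08 for Dlg4 to −1.08 for Shank1 in knockdown neurons. The longest coding transcript of Dlg4 has 6326 nucleotides.

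Length also ordered the difference between the 2 knockdown long-tail libraries. Library 2 minus library 1 was 0.07 on the log2 scale for Dlg4, −0.08 for Ddn, −0.18 for Dlgap3 and 0.03 for Dlg3. It was −0.78 for Dlgap1, −0.50 for Shank3, −0.83 for Dlg2, −1.06 for Shank2 and −1.02 for Shank1. All genes of 7000 nucleotides or more had a median of −0.74 between these libraries, and those under 2000 nucleotides 0.36. In the other 3 groups library differences of the 9 genes ran from −0.74 to 0.22, and Spearman's rho with length was 0.25, 0.73 and 0.20, against −0.92 in knockdown long tails. In knockdown long-tail library 1 alone, against the mean of the total libraries, the 9 genes lay between −0.57 (Shank1) and −0.11 (Dlg4). In library 2 alone they lay between −1.59 (Shank1) and −0.04 (Dlg4). Without library 1, limma called 4 of the 9 genes lower in long tails than in total RNA of knockdown neurons (Dlg2, Shank2, Shank3 and Dlgap1, adjusted p from 0.0156 to 0.0228), along with 15.5% of all genes. Without library 2 it called 0.

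**Figure D4:**
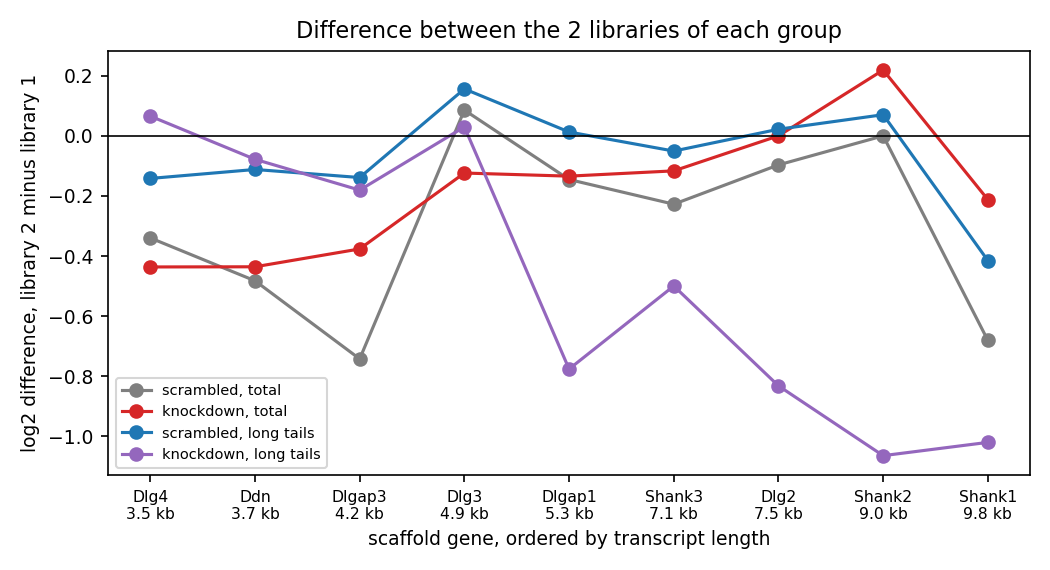
Log2 difference of library 2 minus library 1 within each of the 4 groups, for the scaffold genes ordered from the shortest transcript (left) to the longest. Lines join values of a group. In knockdown long tails the 5 genes above 5000 nucleotides lie between −0.50 and −1.06 and the 4 shorter ones between −0.18 and 0.07. Lengths are those of the 1 transcript taken per gene, and the longest coding transcript of Dlg4 has 6326 nucleotides.

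Ratios within a library do not depend on the scaling of that library, and they show how the makeup of the scaffold mRNA pool varied. Dlg4 and Dlg2 are close relatives, with 3488 and 7490 nucleotides in the transcripts taken here and 6326 and 7813 in the longest. The ratio of Dlg4 to Dlg2 was 4.58 and 3.87 in scrambled total, 5.11 and 3.78 in knockdown total and 5.33 and 4.75 in scrambled long-tail libraries. It was 5.36 and 10.1 in the knockdown long-tail libraries. The ratio of Dlg4 to Shank2 was between 6.26 and 10.5 in 7 libraries and 23.5 in knockdown long-tail library 2. Dlgap3 to Dlgap1 was between 0.727 and 1.23 in 7 libraries and 1.86 in that library. Dlgap3 to Ddn (4207 and 3745 nucleotides) stayed between 0.838 and 1.01 in all 8. By the same values these 2 genes had the most similar profiles of all 36 pairs. Their root mean square difference was 0.0869 on the log2 scale after centring. Similarity did not follow length throughout. Dlg2 and Dlgap1 (7490 and 5276 nucleotides) came next at 0.126, while Dlg3 and Dlgap1 (4885 and 5276) were at 0.353. Dlg4 and Ddn (3488 and 3745) were at 0.142. Dlg4 and Shank2 were the least similar pair (0.554).

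The rest of the postsynaptic apparatus was set beside the scaffold genes, from lists written without regard to how their genes moved here, although earlier results of these data were known. The 5 closest relatives (Dlg1, Dlg5, Dlgap2, Dlgap4 and Dlgap5) had 2 higher and 3 lower in knockdown total RNA and a median of −0.05. Dlgap4 was the most abundant of them, at 196 and 159 TPM in scrambled and 207 and 163 TPM in knockdown total RNA, and at 145 and 136 TPM and 179 and 158 TPM in long tails. Dlg1 overlapped between scrambled and knockdown libraries in each fraction. Its total RNA values were 33 and 40 TPM with the scrambled hairpin and 32 and 34 TPM with the Cnot7 hairpin. Its long-tail values, given in the same order, were 20 and 27 TPM, then 20 and 18 TPM. Of 47 other scaffolds and adaptors, 16 were higher and 30 lower in knockdown total RNA, with a median of −0.07, the median of all genes. At an unadjusted p under 0.05, 3 of the 47 were higher and 3 lower, against 2.05% and 4.30% of all genes. Psd3, an exchange factor for Arf GTPases, has log2 0.91 for total RNA in the authors' deposited table, with an adjusted p of 0.0101. It was at 43 and 47 TPM in scrambled and 79 and 111 TPM in knockdown total RNA. Synpo, which encodes synaptopodin of the spine apparatus, was at 73 and 71 TPM and at 51 and 51 TPM.

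Of 22 receptors and adhesion proteins that the scaffolds bind, 11 were higher and 11 lower in knockdown total RNA (median 0.02). In long tails 9 were higher and 13 lower (median −0.47). Cacng2 encodes stargazin, an auxiliary subunit of AMPA receptors that is anchored by the protein of Dlg4. It was at 20 and 14 TPM in scrambled and 46 and 37 TPM in knockdown total RNA, and at 10 and 12 TPM and 34 and 18 TPM in long tails, without overlap. The authors' deposited tables list it at log2 1.03 for total RNA, with an adjusted p of 0.00357, and at 0.95 for long tails, with an adjusted p of 0.00981. In limma it was not called (1.25 in total RNA, adjusted p = 0.568). Gria2, an AMPA receptor pore subunit, was at 104 and 128 TPM in scrambled and 105 and 61 TPM in knockdown long tails, with its lowest value in the same library as Shank1, Shank2, Dlg2 and Dlgap1.

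Of 22 other mRNAs known from dendrites, 10 were higher and 12 lower in knockdown total RNA (median −0.02), and 12 were higher and 9 lower in long tails (median 0.00). In long tails minus total, 19 of 22 were lower in scrambled neurons (median −0.34), against 75.0% of all genes (median −0.22). In knockdown neurons 17 of 22 were lower (median −0.32), against 69.3% of all genes (median −0.22). Map2, a microtubule-associated protein of dendrites, went from 221 and 293 TPM in knockdown total RNA to 134 and 89 TPM in long tails. In no list and in no comparison was a gene called by limma over all genes. For the 9 scaffold genes this holds for all 5 comparisons.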

How the data were processed

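Poly(A) RNA of 8 libraries was measured. The authors deposited 1 gene table that, per its name and values, holds TPM from RSEM rounded to whole numbers, used here as a score of relative abundance; CASAVA, TopHat2, RSEM, DESeq, DESeq2 and mm10 are named, per the submitters' processing notes, without versions or roles. Their 2 result tables give, per the file headers, a mean signal of normalized counts, a log2 fold change, its standard error, a test score and p-values, raw and adjusted. The deposited log2 fold change was turned so that positive means higher in knockdown, which then had the sign of the TPM difference for 104 of 104 and 97 of 97 genes.

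Values were taken as log2(TPM + 1) for genes averaging 1 TPM or more. A fold change on this scale understates that of low genes. A limma model (version 3.58.1, R 4.3.3; lmFit, eBayes, trend on) used all 8 libraries and 4 group means; 5 contrasts were tested two-sided, with Benjamini-Hochberg adjustment over 13681 genes. On data simulated for knockdown minus scrambled in total RNA with 13618 genes, it recovered 96 of 100 genes changed by 2 and 15 of 100 changed by 1 on the log2 scale, with 0 false calls. The changed genes were drawn from those averaging 20 TPM or more, and noise was independent between libraries. Recovery of lower genes was not tested. No exact permutation test was run, since 0.333 is the smallest p that 2 libraries against 2 allow. For each gene 1 coding transcript (APPRIS rank, then length) was taken from GENCODE.

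The members and lists were chosen with earlier results of these data known. The named genes are the 9 members, Cnot7, up to 4 genes per list by smallest p, of which some are described, and the 5 genes nearest to the mean profile. Names of 27 genes stood as dates and were not matched. Alternatives are given at the end.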

Additional observations from a re-analysis of the deposited data

How the results depend on the processing

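Of the 9 members, 0 were called in each comparison under each alternative run, with 2 exceptions. Without knockdown long-tail library 1 the count for long tails minus total in knockdown neurons was 4, so it ranged from 0 to 4 over left-out libraries. With the replicate number as a block and a mean of at least 20 TPM, chosen after the data were seen, it was 6 there (all but Dlg4, Dlgap3 and Ddn; 21.3% of all genes) and 1 for scrambled neurons (Shank1; 1.45%). The labels state no pairing. Deviations of same-numbered libraries correlated at −0.116 to 0.759 over 6 pairs of groups, below the level taken as pairing in 1 pair. With the replicate block alone the count was 0 in all 5 comparisons. In a fit to the 4 knockdown libraries alone, without the 20 TPM filter, 0 of all genes were called with the numbers crossed and 0 uncrossed, so it says nothing of the 6 calls. Over all genes the count of 0 in knockdown minus scrambled became 43 in total RNA and 54 in long tails without a filter, and 50 and 83 with only the 4 libraries of a comparison. Centring on the median raised long tails minus total by 0.21 in scrambled and 0.22 in knockdown neurons and turned Dlg4 in knockdown neurons to 0.14. The interaction of Dlgap3 turned to −0.013 without Rn45s and to −0.0097 with quantile normalization. Over left-out libraries, signs turned within these ranges. In knockdown minus scrambled in total RNA they were −0.012 to 0.47 for Ddn, −0.050 to 0.095 for Dlgap1, −0.10 to 0.65 for Dlgap3 and −0.11 to 0.57 for Shank1. In long tails they were −0.39 to 0.44 for Dlg2, −0.62 to 0.15 for Dlgap1, −0.62 to 0.40 for Shank1 and −0.90 to 0.17 for Shank2. In long tails minus total they were −0.69 to 0.056 for Dlgap3 (scrambled) and −0.30 to 0.14 for Dlg4 (knockdown). In the interaction they were −0.27 to 0.21 for Ddn, −0.55 to 0.28 for Dlg2, −0.16 to 0.00017 for Dlg3, −0.65 to 0.13 for Dlgap1, −0.32 to 0.43 for Dlgap3, −0.86 to 0.16 for Shank1, −1.01 to 0.057 for Shank2 and −0.30 to 0.20 for Shank3. The cause of these turns was not tested. Where a left-out library leaves a group with 1, its spread is assumed to be that of the other groups. Depth is unknown, and its limit on the low values cannot be given.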

Other observations

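Genes of the inhibitory postsynapse, such as Gphn, the gephyrin scaffold of GABA and glycine receptors, gave a comparison from the other class of synapse. Of 10 such genes, 5 were higher and 5 lower in knockdown total RNA (median 0.05) and 5 and 5 in long tails (median 0.01), and 0 were called by limma. In long tails minus total all 10 were lower in scrambled neurons (median −0.46), against 75.0% of all genes (median −0.22). All 10 were also lower in knockdown neurons (median −0.56), against 69.3% of all genes (median −0.22). These genes were not compared within ranges of length. Gphn was at 68 and 68 TPM in scrambled and 65 and 64 TPM in knockdown total RNA, and at 54 and 62 TPM and 49 and 47 TPM in long tails.

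The mean profile of the 9 scaffold genes over the 8 libraries was compared with those of the 6801 other genes averaging 20 TPM or more. The nearest, by root mean square difference of centred log2 values, were Arhgap39 (0.0592), BC005537 (0.0622), Cybrd1 (0.0671), Aatk (0.0673) and Rbfox2 (0.0690). Of the 9 themselves, Shank3 lay nearest to the mean profile (0.0862) and Shank2 farthest (0.290). Arhgap39 was at 56 and 47 TPM in scrambled total, 61 and 53 TPM in knockdown total, 38 and 37 TPM in scrambled long-tail and 45 and 34 TPM in knockdown long-tail libraries.

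Tested genes with a cytoplasmic polyadenylation element in their last 100 bases (n = 2355) had a median knockdown minus scrambled difference of −0.08 in total RNA and −0.16 in long tails, against −0.08 and −0.10 for those without one (n = 9624). Dlg3, the scaffold gene with an element, was at 0.47 and 0.39.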
